A study of Mus musculus and unidentified plasmid with 60 samples.

Results

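Binding of a dominant-negative RFX protein was examined around Slc1a1 and Map1a, a pair of neuronal genes described as targets of RFX1. The members are all regions of the deposited lists of bound sites that overlap a window of 115 kb around Slc1a1 (mm9, chromosome 19, 28890000 to 29005000) or of 60 kb around Map1a (mm9, chromosome 2, 121095000 to 121155000). They number 36 of the 295409 regions in the 3 lists together, 17 at Slc1a1 and 19 at Map1a. Of these 36, 21 come from silenced neurons, 15 from neurons depolarized for 1 h and 0 from the group titled WT.

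Among the 60 samples of the series are 8 ChIP-seq libraries, 2 in each of 4 groups. The cells were primary neurons taken from the cortex of CD-1 mouse embryos at E16 and studied on day in vitro (DIV) 7. The lists hold no expression values, so the cell type could not be checked against markers. Neurons of the 0 h and 1 h groups received the construct by lentivirus on DIV 2, and its MYC tag was the target of the antibody, so the lists show where the introduced protein was and not the native factors. Activity of both groups was blocked overnight from DIV 6, by tetrodotoxin together with DL-2-amino-5-phosphonopentanoic acid, a blocker of NMDA receptors. The 1 h group was then depolarized in 55 mM KCl, a common stand-in for strong neuronal activity, and the 0 h group was not. For the WT group the labels give strain, age and replicate number and no treatment, and do not settle if the construct was present. The lists of these 3 groups were used, and the 2 input libraries and the 52 samples of other kinds were not analysed here.

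RFX proteins are transcription factors with a winged-helix domain that recognise the X-box, an inverted repeat bound as a dimer, and RFX1 is a member found in many tissues including brain. Slc1a1 encodes the glutamate transporter EAAT3 (also called EAAC1), which neurons use to take up glutamate and cysteine. Map1a encodes microtubule-associated protein 1A, which binds and stabilises microtubules in the dendrites and axons of maturing neurons. A dominant-negative RFX is made to interfere with the native proteins.

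The promoters of both genes are shown because RFX proteins are best known for binding close to gene starts. They come from RefSeq in build GRCm38.p6 and cannot be set against the mm9 positions of the bound regions. Both genes were found in the table, and both lie on the plus strand. The 250 bases before the start of Slc1a1 begin at base 28834885 of chromosome 19 and those of Map1a at base 121289352 of chromosome 2. The line named Map1a site gives 30 bases that follow the Map1a start (chr2:121289619-121289648), with capitals on a half-site joined to the centre of an X-box.
Slc1a1: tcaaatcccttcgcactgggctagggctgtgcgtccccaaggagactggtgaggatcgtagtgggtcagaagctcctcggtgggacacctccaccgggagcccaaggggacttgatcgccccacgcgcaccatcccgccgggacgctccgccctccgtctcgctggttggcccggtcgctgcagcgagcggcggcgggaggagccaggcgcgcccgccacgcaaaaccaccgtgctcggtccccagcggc
Map1a: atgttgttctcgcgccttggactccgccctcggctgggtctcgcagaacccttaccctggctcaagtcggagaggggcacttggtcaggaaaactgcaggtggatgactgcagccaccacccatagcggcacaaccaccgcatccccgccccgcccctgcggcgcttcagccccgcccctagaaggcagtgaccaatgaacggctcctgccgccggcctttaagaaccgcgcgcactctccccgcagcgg
Map1a site: ctccgcgggaGTTTCCATGGcgaccgaagc

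The X-box half-site was searched as GTTNCC on both strands over the 300 bases from 250 before to 50 after each start. Map1a held 1 match, GTTTCC, whose leftmost base is base 28 after the start. It ran on into the palindromic centre CCATGG, which overlaps the half-site by its CC, to give GTTTCCATGG. Slc1a1 held 0 matches to the half-site and 0 to the centre, which says only that these letters are not in this stretch. Of 32851 promoters of the same length, 45.3% held the half-site, 9.56% the centre and 1.18% the joined form GTTNCCATGG on either strand. The CCAAT box, another common promoter element, was also present at Map1a and not at Slc1a1, and 37.4% of promoters held it on either strand. Both promoters were rich in G and C, with 70.3% at Slc1a1 and 65.7% at Map1a, against a median of 52.7% over all promoters. These matches describe sequence, and no binding at them was measured here.

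At Slc1a1 the construct was listed at 11 regions in silenced neurons and at 6 after 1 h of KCl. All 6 of the 1 h regions overlapped a 0 h region, so the window gained no site, and 5 of the 11 sites at 0 h had no counterpart. Over the whole lists, 93.3% of 1 h regions overlapped a 0 h region and 65.4% of 0 h regions overlapped a 1 h region. The Slc1a1 share of 0 h regions met at 1 h, 54.5%, lies below that level by little more than 1 region. The number without a counterpart was 3 when the first 0 h column was left out, 7 without the first 1 h column and 8 with the window widened by 10 kb at each end. Regions carry no replicate test of their own, since each list combines 2 libraries, and neighbouring regions of 1 locus are not replicates.

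**Figure D1:**
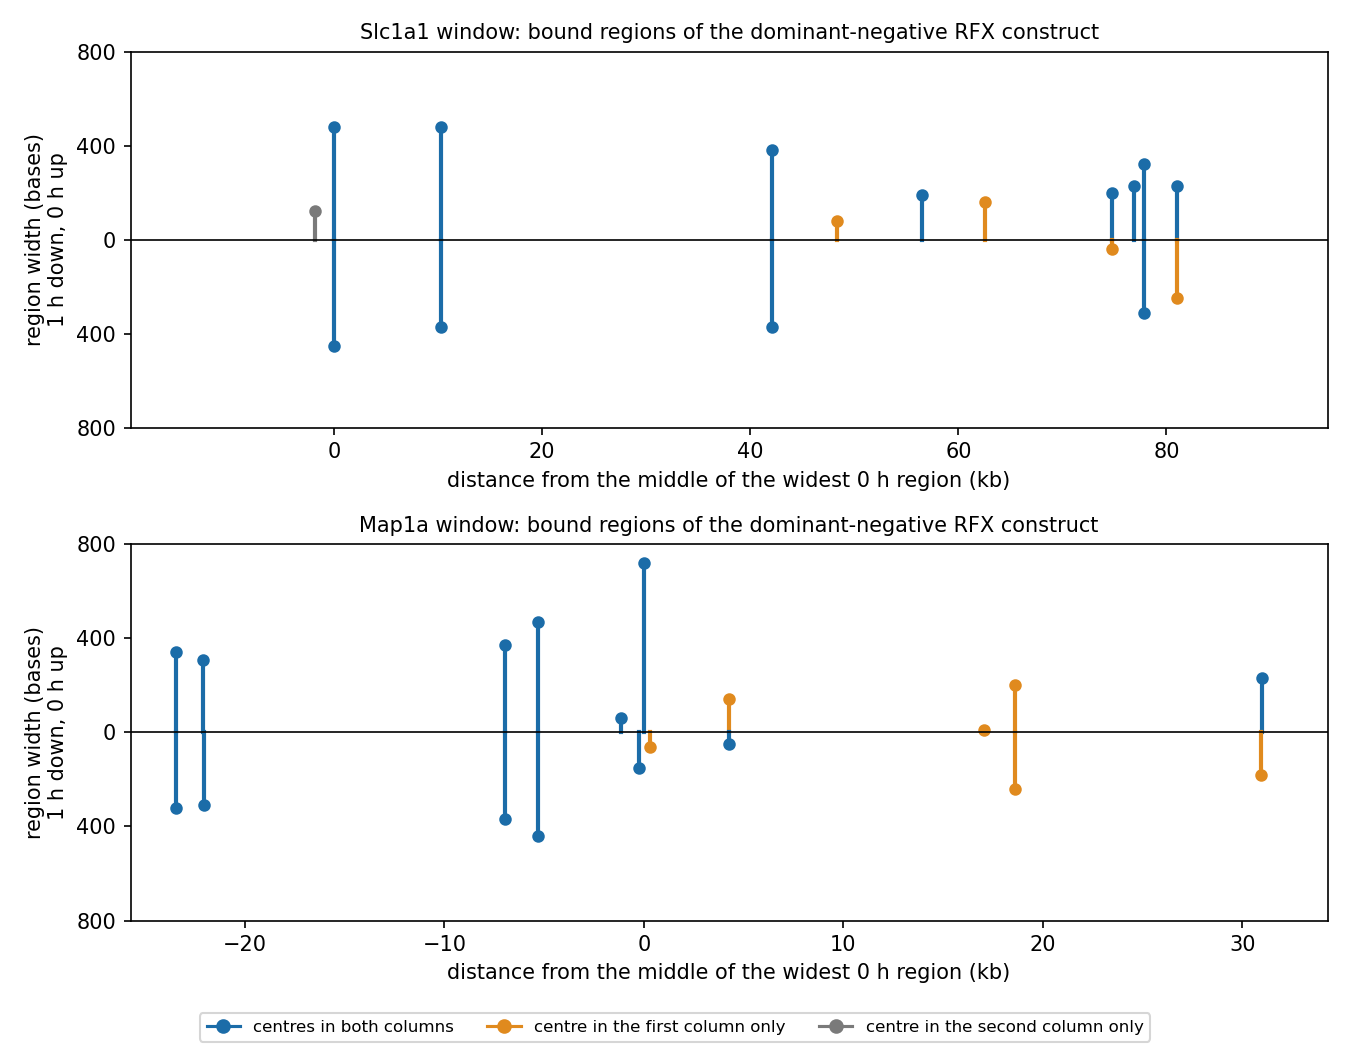
Bound regions in the Slc1a1 window (top) and the Map1a window (bottom), placed by distance in kb from the middle of the widest 0 h region, with stem length giving region width in bases (0 h upward, 1 h downward) and colour giving the replicate columns that hold a centre. Slc1a1 has 11 stems up and 6 down, and Map1a has 10 up and 9 down.

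The widest Slc1a1 regions were present at both times. The site from 28909290 to 28909770 measured 480 bases in silenced neurons and 450 bases at 1 h (28909350 to 28909800). Its 0 h centres lay 110 and 130 bases from its left end, at 28909400 and 28909420. At 1 h the first column placed the centre at 28909400, the place of a 0 h centre, but the second placed it at 28909650, a distance of 250 bases. Centres that far apart or farther were held by 0.913% of 1 h regions with centres in both columns and by 1.10% of such 0 h regions. Its extent was thus nearly alike at both times, while the replicate columns put its centre in different places at 1 h.

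A second region of 480 bases, from 28919570 to 28920050, had a counterpart of 370 bases at 1 h (28919670 to 28920040), most of the difference lying on the left side. Its columns differed by 60 bases at 0 h and coincided at 28919830 at 1 h. The region in the middle of the window, 28951460 to 28951840, measured 380 bases at 0 h and 370 at 1 h. Its centres lay at 28951650 and 28951630 at 0 h and at 28951640 and 28951620 at 1 h. The region from 28987230 to 28987550 was also much alike at both times, with widths of 320 and 310 bases and both columns agreeing on a single centre at each time. These 4 sites had centres in both columns at both times.

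The other 2 shared sites of Slc1a1 had centres in both columns at 0 h and in the first column alone at 1 h. One of them measured 200 bases at 0 h (28984200 to 28984400) and 40 bases at 1 h (28984290 to 28984330). The other, 28990430 to 28990660, was 230 bases at 0 h and 250 bases at 1 h, so the second column was missing at 1 h although the region was no narrower. Among all 0 h regions with centres in both columns and a single counterpart, 28.0% had a counterpart that lacked a column.

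Of the 5 sites of Slc1a1 listed at 0 h alone, 2 had centres in both columns. The region from 28986330 to 28986560, 230 bases wide, had its centres 65 bases apart and lay 690 bases from the nearest 1 h region. Of 20086 regions in the 0 h list with centres in both columns and a width within 20 bases of it, 86.5% were met at 1 h. The region from 28965920 to 28966110, 190 bases wide with centres 10 bases apart, lay 14090 bases from the nearest 1 h region, and 68.5% of regions like it were met. For comparison, 15.1% of all 0 h regions supported by both columns had no counterpart at 1 h.

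The remaining 3 were weaker in support. The region from 28971980 to 28972140 (160 bases) and that from 28957810 to 28957890 (80 bases) rested on the first column alone, and 48.6% and 24.5% of regions like them were met at 1 h. The region from 28907690 to 28907810 (120 bases) rested on the second column alone and lies 1480 bases to the left of the widest site. Of regions like it, 18.9% were met. Of the 5 sites absent at 1 h, 2 were thus of kinds that the 1 h list mostly holds. The other 3 were of a kind met about as often as not (48.6%) and of kinds mostly lacking (24.5% and 18.9%).

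At Map1a the construct was listed at 10 regions at 0 h and at 9 after 1 h, a difference whose direction turned (7 against 9) without the first 0 h column and which was 10 against 6 without the first 1 h column. All 9 overlapped a 0 h region, and 8 of the 10 regions at 0 h were met at 1 h (80.0%, against 65.4% of the whole list). The 2 not met became 1 without the first 0 h column or with regions of at least 100 bases only, and 4 without the first 1 h column or with overlap of at least 50% of both regions. The widest region of either window lay here, from 121120370 to 121121090, with 720 bases at 0 h, and 1.79% of the 0 h list was wider. Its 0 h centres lay 80 and 70 bases from its left end. As deposited, the 1 h list gave it as 2 pieces with a gap of 480 bases between them.

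The left piece, 121120390 to 121120540, was 150 bases wide and had centres in both columns, at 121120440 and 121120430. The 0 h centres lay at 121120450 and 121120440. The right piece, 121121020 to 121121080, was 60 bases wide and rested on a first-column centre at 121121040. The 0 h list gives no centre there, but it holds at most 1 centre per column for a region. It could not show a further centre within the joined region, so this is no sign of a new one at 1 h. The pieces together covered 210 bases, 510 fewer than the 0 h region. The split depends on how regions are joined: with regions within 500 bases merged, the site was a single 1 h region of 690 bases (121120390 to 121121080), 30 bases narrower than at 0 h. More than 1 region at 1 h was met by 0.505% of all 0 h regions, but by 4.24% of the 731 with centres in both columns and a width within 20 bases of this one.

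Of the regions to the left of this site, 4 differed little between the times, and they formed close pairs. The leftmost pair, 121097110 to 121097450 and 121098480 to 121098790, is separated by 1030 bases with widths of 340 and 310 bases in silenced neurons and of 320 and 310 bases after KCl. The next pair, 121113590 to 121113960 and 121115180 to 121115650, is separated by 1220 bases. Its left member was 370 bases wide with the same ends at both times, and its right member measured 470 bases at 0 h and 440 at 1 h. All 4 had centres in both columns at both times. Whichever columns are compared, no centre differed by more than 10 bases between the times. At each time the centres of a region lay at most 10 bases apart. Over the lists, 78.7% of 0 h regions and 80.3% of 1 h regions with centres in both columns had them within 20 bases.

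To the right, Map1a sites varied more. The region from 121124930 to 121125070 was supported by the first column alone at 0 h, with 140 bases, and by both columns at 1 h, with 50 bases (121124990 to 121125040). It was the 1 site of either window that gained a column, and over the lists 8.53% of 0 h regions with a centre in 1 column and a single counterpart did so. The region from 121151620 to 121151850 went the other way, from 230 bases and both columns to 180 bases and the first column only. The region from 121139240 to 121139440 rested on the first column alone at both times, with 200 bases at 0 h and 240 at 1 h.

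Both Map1a sites listed at 0 h alone were narrow. The region from 121119540 to 121119600 was 60 bases wide, had centres in both columns 20 bases apart and lay 790 bases from the nearest 1 h region. Of regions like it, 29.4% were met at 1 h. The region from 121137760 to 121137770 had the smallest width in the list, 10 bases, and rested on the first column alone. Of regions like it, 14.8% were met.

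**Figure D2:**
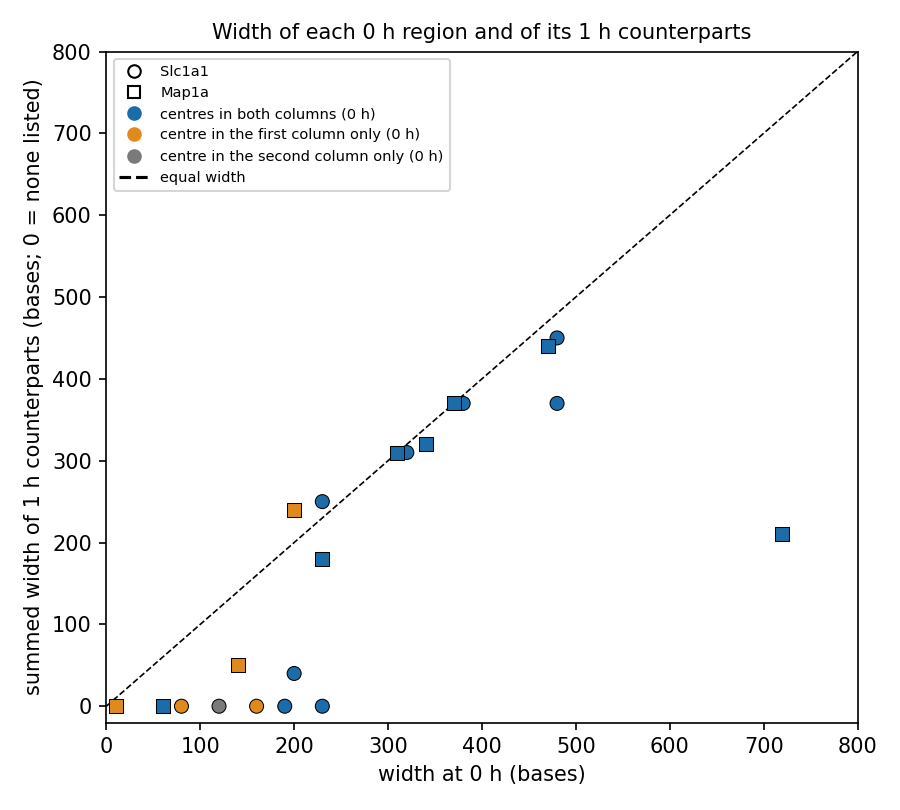
Width in bases of each of the 21 regions listed at 0 h (horizontal axis) against the summed width of its 1 h counterparts (vertical axis, 0 where none was listed), with circles for Slc1a1, squares for Map1a and colour for the columns that hold a centre at 0 h. Sites of 300 bases or more lie near the line of equal width, apart from the Map1a region of 720 bases whose pieces sum to 210 (690 when merged) and the Slc1a1 region that measured 480 and 370.

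At both loci the wide sites were listed at both times, and the sites missing at 1 h were of moderate or small width. Of regions in the 0 h list like each site of 300 bases or more, 96.0% to 99.3% were met at 1 h. The presence of wide sites at both times is thus that of the background. Of the Slc1a1 sites with a single counterpart, 5 of 6 were narrower at 1 h and 1 was wider. Of the 7 such sites at Map1a, 4 were narrower, 2 had the same width and 1 was wider. In the whole lists 71.0% of regions with a single counterpart were narrower at 1 h and 20.4% were wider, so the direction at both genes is that of the background. A width of 50% or less of the 0 h width was found for 1 of the 6 at Slc1a1 and 1 of the 7 at Map1a, against 14.7% of the list. No region absent at 1 h was wider than 230 bases, and no region of 300 bases or more was absent.

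The bases covered at 1 h were 62.4% of those at 0 h for Slc1a1 (1790 against 2870) and 74.4% for Map1a (2120 against 2850), where the whole list gave 70.9%. The median width was 230 bases at 0 h and 340 at 1 h in the Slc1a1 window, and 270 and 240 in the Map1a window. The Slc1a1 medians are of different sets, since the 5 regions absent at 1 h were at most 230 bases wide. Of its 6 shared regions, 5 were narrower at 1 h. If each 0 h region had been met at the rate of regions with the same columns and like width, 7.97 of 11 would have been met at Slc1a1 and 7.34 of 10 at Map1a, against 6 and 8. These are descriptions of 21 regions, and the difference between the genes was not tested.

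Support by the replicate columns was similar at both genes. At 0 h, 8 of 11 Slc1a1 regions and 7 of 10 Map1a regions were supported by both columns, against 61.0% of the list. After KCl it was 4 of 6 and 6 of 9, against 54.8%. A centre in the second column alone was found once, at Slc1a1 at 0 h. It is the rarest kind of support in the whole lists too, with 17270 of 173231 regions at 0 h and 7476 of 122135 at 1 h. The columns are not tied to named libraries, so nothing links a column at 0 h with the like-named column at 1 h.

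Centres in the Slc1a1 window numbered 10 and 9 in the columns at 0 h and 6 and 4 at 1 h, so the columns of the times did not overlap. Their means were 9.5 ± 0.71 and 5.0 ± 1.41 (SD, n = 2 columns), a ratio of 1.90, with a two-sided exact permutation p of 0.333, the smallest that 2 columns against 2 allow. In the Map1a window they numbered 10 and 7 at 0 h and 9 and 6 at 1 h, and the times overlapped. The means were 8.5 ± 2.12 and 7.5 ± 2.12 (SD, n = 2 columns), a ratio of 1.13, with a two-sided exact permutation p of 0.667. With 1 column left out, the Map1a ratio ran from 0.933 to 1.42. Over the whole lists centres numbered 155961 and 122913 at 0 h and 114659 and 74386 at 1 h. As at Slc1a1, the times did not overlap, and the two-sided exact permutation p was again 0.333. The whole-list ratio was 1.48, between those of the genes. With 2 columns against 2 these p-values can take few values and do not measure the size of a difference. The labels leave unsaid whether the libraries of a group were separate cultures. The p-values then concern these libraries only, and technical causes of their differences cannot be told apart from biological ones.

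Within the windows as set, listed regions were denser at Map1a than at Slc1a1. The Map1a window held 16.7 regions per 100 kb at 0 h and 15.0 at 1 h, where that of Slc1a1 held 9.57 and 5.22. All chromosomes were divided into consecutive windows of the same length, and those without a region in either list were left out. Among 39181 windows of 60 kb the median was 4 regions at 0 h and 3 at 1 h, and more regions than at Map1a were found in 3.35% of windows at 0 h and 1.13% at 1 h. Among 21722 windows of 115 kb the medians were 7 and 5, and more regions than at Slc1a1 were found in 24.1% and 37.1%. The edges of the gene windows were set with the loci in view, so these shares are a description.

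**Figure D3:**
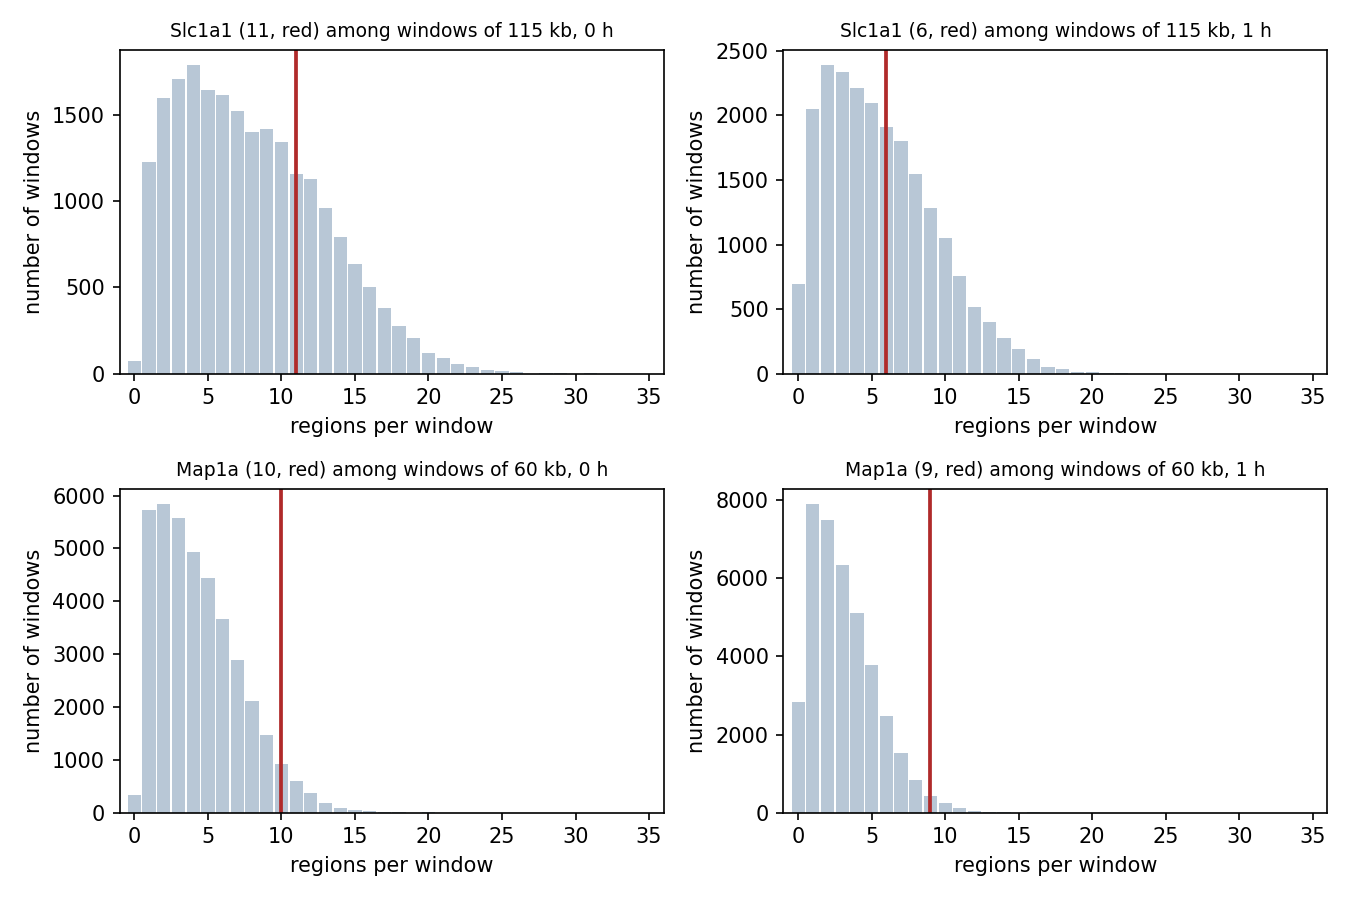
Number of consecutive windows (vertical axis) that hold a given number of bound regions (horizontal axis), for windows of 115 kb (top) and 60 kb (bottom) at 0 h (left) and 1 h (right), with the gene's own window as a red line. Map1a, with 10 and 9 regions, stands in the upper tail at both times, while Slc1a1, with 11 and 6, stands above the median and well inside the distribution.

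Not all of these sites need belong to the genes that name the windows. In RefSeq the Map1a gene spans 21243 bases and overlaps its neighbours Trp53bp1 and Ppip5k1, and Slc1a1 spans 78826 bases, so either window is longer than its gene. Which regions fall in the promoters or first introns was not analysed here, because no mm9 annotation was used. Just outside the Slc1a1 window, within 10 kb on its left side, the 0 h list held 3 further regions, of 230, 90 and 170 bases, and none of them had a 1 h counterpart. The 10 kb on either side of the Map1a window held no region in either list, so the density inside it does not extend to its flanks.

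The WT list placed no region in either window. Its nearest region to Slc1a1 lay 965 kb away on chromosome 19 (27924200 to 27924530, 330 bases, centres in both columns). On chromosome 2 the WT list held 2 regions in all, and the nearer to Map1a was 60854 kb away. With 43 regions against 173231 and 122135, the WT list is so short that a count of 0 in windows of this size carries little information.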

How the data were processed

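ChIP-seq regions of 3 groups of 2 libraries were read from lists that the authors deposited once per group. Per the file headers each region has a chromosome, a start, an end and a pair of columns, c1 and c2. From the values, each of these gives a place within the region or a negative value for none, and was read as the peak centre in 1 of 2 replicates. Per the submitters' processing notes, the tools and builds include Bowtie and mm9. Not given in the sources used here are the caller of the peaks, the cut-off applied, how replicates were joined and whether positions count from 0 or 1. The lists hold no score and no read depth, so depth is unknown and width and column support stand in for strength. Narrow or single-column regions may lie near the caller's threshold, which was not tested.

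Width is end minus start. Regions overlapping by at least 1 base were taken as counterparts, and like regions share the column support and a width within 20 bases. Centres per column were compared by a two-sided exact permutation test. The overlap code was tested on simulated data. Windows, motifs and comparisons were chosen with earlier results of these data known. The naming rule prints every region of a window with up to 12. It also listed other glutamate transporter and microtubule-associated protein genes for use with an mm9 annotation, and these were not analysed here. Alternatives changed the overlap rule, column support, minimum width, merging, window edges and the columns used. Python 3.11.15, numpy 2.4.6, pandas 2.3.3, scipy 1.17.1 and matplotlib 3.10.9 were used.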

Additional observations from a re-analysis of the deposited data

How the results depend on the processing

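Most values at both genes stayed within 1.5 times the reported ones: 128 of 134 recomputed values did so, or for ratios kept their direction. That share overstates stability, because part of the values could not change. Leaving out a column at one time cannot alter the region count or covered bases at the other. Leaving out the second column removes no region where none rests on it alone, as at Map1a. The exceptions among the 134 values were all at Map1a. At Slc1a1, though, counts that fell from 6 to 4 lay exactly on the limit of 1.5 times and were taken as within it. These were the regions met in either direction and the number of regions at 1 h. Numbers of regions without a counterpart, derived from such counts, also moved at Slc1a1. With regions that had centres in both columns only, 5 of the Map1a 0 h regions met a 1 h region and 5 of its 1 h regions met a 0 h region, as follows from the shorter lists. With the window narrowed by 10 kb at each end, 5 of its 0 h regions were met and 1310 bases were covered at 1 h, as follows from the smaller window. With regions within 500 bases merged, Map1a held 8 regions covering 2600 bases at 1 h, as its split site became 1 region. Its ratio of mean centres fell below 1 without the first 0 h column (0.933) and without the second 1 h column (0.944), and with 1 column left out it ran from 0.933 to 1.42. For Slc1a1 the ratio ran from 1.58 to 2.38 with 1 column left out, and 0 h exceeded 1 h in each case. With 1 column left out, regions of Slc1a1 met at the other time numbered 4 to 6 in either direction, and those of Map1a 6 to 8 at 0 h and 6 to 9 at 1 h. Slc1a1 then held 9 to 11 regions at 0 h and 4 to 6 at 1 h, covering 2630 to 2870 and 1500 to 1790 bases. Map1a held 7 to 10 and 6 to 9 regions, covering 2500 to 2850 and 1640 to 2120 bases. Leaving out a column removed only the regions that rested on it alone, and all others kept their listed ends. The covered bases are thus not those that a single library would give. Map1a had 7 regions at 0 h against 9 at 1 h without the first 0 h column, the 1 alternative in which 0 h did not exceed 1 h in number. The 0 h regions not met at 1 h numbered 3 to 7 at Slc1a1 and 1 to 4 at Map1a with 1 column left out. No paired analysis was possible because neither c1 nor c2 is tied to a replicate number. Without read depths, a limit of detection could not be computed.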
